A study of Mus musculus with 108 samples.

Results

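The genes of pyrimidine breakdown Upp1, Upp2, Cda, Dpyd, Dpys and Upb1 were described in messenger RNA of Bmal1-iKO and Bmal1-flox mice, in white adipose tissue (WAT), liver and kidney. They were taken by symbol from the deposited table and make up 6 of its 55416 genes. Upp1 and Upp2 encode uridine phosphorylases, Cda encodes cytidine deaminase, and Dpyd, Dpys and Upb1 encode the enzymes that take uracil apart. Upp2 was chosen by its measured daily rhythm in liver in earlier results of these data, so its rhythm there is described without a test, and the others were taken as the genes of its pathway.

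The mice were male C57BL/J animals 8 to 12 weeks old, written iKO and flox here by their genotype. Bmal1 is a transcription factor of the circadian clock with the gene symbol Arntl, and by its title the series is about the clock of the intestine. The labels give neither the Cre driver nor the deleted cells, so flox animals are known here only as carriers of the floxed gene. Sampling was at 2, 6, 10, 14, 18 and 22 h of zeitgeber time (ZT), which counts from lights on, with 3 libraries per tissue, genotype and time and 36 per tissue. Nothing in the labels ties a library to an animal of its own, so the spread behind each p-value may be partly technical. Libraries carry their genotype, time and number from 1 to 3 as a name, and values of 3 libraries are given in the order of these numbers.

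Cells break uridine down by splitting off its ribose, which uridine phosphorylase does, and cytidine joins this route once cytidine deaminase has made it into uridine. The uracil that is left is reduced by dihydropyrimidine dehydrogenase (Dpyd), which limits the rate of the pathway, opened by dihydropyrimidinase (Dpys) and cut to beta-alanine, ammonia and carbon dioxide by beta-ureidopropionase (Upb1). The liver is known as a main site of uridine uptake and breakdown. In mouse, Upp2 is known as a phosphorylase mainly of liver and Upp1 as the more widely expressed form.

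In GENCODE M21 on GRCm38, Upp2 spans chr2:58567298-58792971 on the plus strand, Upp1 chr11:9118103-9136170 on the plus strand and Cda chr4:138338424-138367992 on the minus strand. Dpyd spans chr3:118562129-119432924 on the plus strand, Dpys chr15:39768487-39857470 on the minus strand and Upb1 chr10:75401115-75441679 on the plus strand. All counts are sums over the exons of a gene, so transcripts of 1 gene cannot be told apart. The whole span of Upb1, 40565 bases, is overlapped by the protein-coding gene Gucd1 on the other strand, and 15333 bases of Dpys overlap the antisense gene Gm16291. How strand was handled in counting is not given in the sources used here, and reads from such partners may have been assigned to either gene or to none.

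The RefSeq promoter table holds 2 windows for Upp2, whose starts lie 188 kb apart, while GENCODE also lists transcripts that start outside both, and the windows are shown because the rhythm of this gene is the pattern that stood out. Each window holds 250 bases before the start and 50 after it, from RefSeq on GRCm38.p6, plus strand, at chr2:58567084-58567383 for the distal start and chr2:58754934-58755233 for the internal start. Capitals mark AGGTCA, the half-site of many nuclear receptors.
Upp2 distal window: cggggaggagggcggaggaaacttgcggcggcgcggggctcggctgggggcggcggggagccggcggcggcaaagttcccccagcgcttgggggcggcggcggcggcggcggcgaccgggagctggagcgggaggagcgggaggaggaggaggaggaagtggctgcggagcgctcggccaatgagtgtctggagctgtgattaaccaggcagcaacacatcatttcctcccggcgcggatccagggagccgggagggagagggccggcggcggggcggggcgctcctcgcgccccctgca
Upp2 internal window: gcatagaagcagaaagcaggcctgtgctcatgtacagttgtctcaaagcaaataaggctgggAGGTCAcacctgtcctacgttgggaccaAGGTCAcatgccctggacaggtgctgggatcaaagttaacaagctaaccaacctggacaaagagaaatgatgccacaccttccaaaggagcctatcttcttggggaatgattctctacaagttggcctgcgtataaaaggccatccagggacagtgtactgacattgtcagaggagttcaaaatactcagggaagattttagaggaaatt
The distal window is 75.3% G and C and the internal window 47.0%. Both strands were searched for the clock E-box CACGTG, the D-box TTANGTAA and the half-site AGGTCA. The internal window holds 2 half-sites, whose first bases lie 188 and 160 bases before the start, and neither of the other motifs, and the distal window holds none of the 3 motifs. Of 32851 promoter windows of the same length in the table, 16.3% hold at least 1 half-site and 1.81% hold 2 or more, 7.15% hold the E-box and 2.32% the D-box. These matches are letters only and do not show a binding site. The transcripts with cap-analysis support for their start begin within the internal window, at chr2:58754942 and chr2:58755180. Both half-sites lie after the start at 58754942, within that transcript's span, and before the start at 58755180. Of the 8 windows of the 5 members in the table, 1 other, of Upp1, holds a half-site, 12 bases after its start.

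Total counts per library (rounded) were 14428000 to 23428000 in liver, 13876000 to 22123000 in kidney and 14103000 to 24415000 in WAT. Arntl, averaged over the day, differed between iKO and flox by -0.10 (SE 0.18) in liver, 0.28 (SE 0.21) in kidney and -0.09 (SE 0.22) in WAT on the log2 scale, none of it called by edgeR. The labels do not name the deleted cells and no intestine was measured, so these averages are no check of the genotypes. Hepatocyte genes averaged 10.73 to 12.96 in liver libraries on the scale of log2 CPM, where CPM is a count relative to the total of its library, scaled by TMM within a tissue. In 11 liver libraries, 9 iKO and 2 flox, cell cycle genes averaged 3.13 to 3.83 log2 CPM against -0.96 to 0.95 in the other 25, and they also had macrophage gene means of 6.76 to 8.10 against 1.64 to 5.8. They were iKO ZT6 1 and 2, ZT14 1 and 2, ZT18 1 and 2 and ZT22 1, 2 and 3, with flox ZT6 1 and ZT22 1. Results were therefore also computed without these 11 numbers. In each tissue this leaves no iKO library at ZT22, so averages of iKO minus flox over the day then leave out ZT22. In 2 iKO liver libraries, ZT18 1 and ZT22 3, sex-linked genes went against the label of male animals. Both belong to the 11. These genes were read for this in liver only, and results of each tissue were also computed without these numbers. In 13 WAT libraries, 7 iKO and 6 flox, epididymis genes averaged 10.82 to 12.13 log2 CPM against -2.40 to 8.97 in the other 23.

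Upp2 followed a strong daily course in flox livers, high in the light phase and low at ZT18, and a flatter one in iKO livers. This course chose the gene, and the values by time are given as a description. At ZT2 Upp2 had 153, 934 and 331 CPM in iKO livers, against 675, 685 and 595 CPM in flox livers. The 3 flox libraries lay within the spread of the 3 iKO libraries, which differed from each other by more than at any other time. At ZT6 it had 354, 362 and 661 CPM in iKO livers, against 557, 933 and 1200 CPM in flox livers, and the groups overlapped. At ZT10 the values were 356, 388 and 483 CPM in iKO livers, against 519, 594 and 594 CPM in flox livers, and all iKO libraries were the lower ones.

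In the dark phase the order turned. At ZT14 Upp2 had 174, 249 and 364 CPM in iKO livers, against 215, 172 and 277 CPM in flox livers, which overlapped. At ZT18 it had 444, 389 and 156 CPM in iKO livers, against 128, 89.6 and 90.7 CPM in flox livers. All 3 iKO libraries were the higher ones at ZT18, and the lowest of them, iKO ZT18 3, was the only one outside the 11 libraries with high cell cycle genes. At ZT22 it had 344, 441 and 333 CPM in iKO livers, against 436, 150 and 442 CPM in flox livers, and all 3 iKO libraries belonged to the 11.

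**Figure D1:**
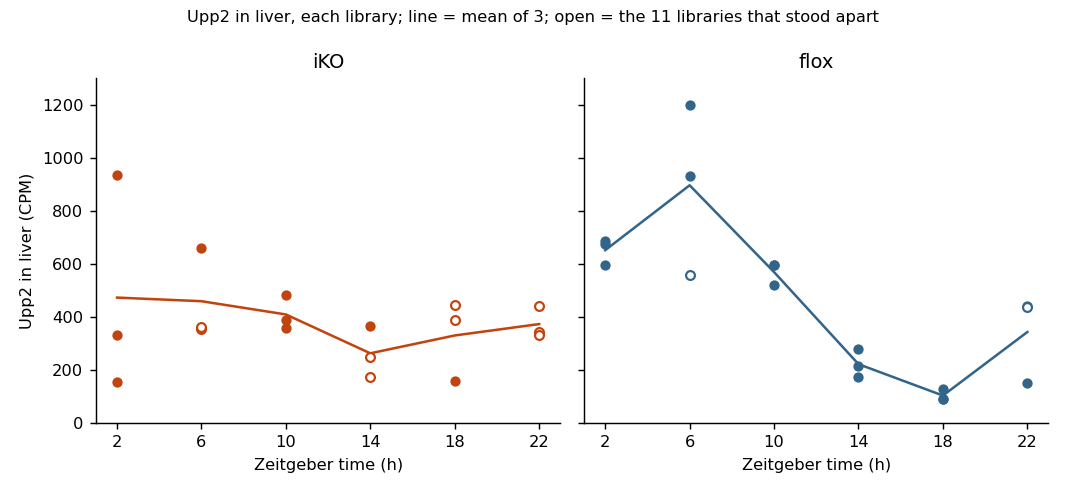
Upp2 in liver in CPM (vertical axis, from 0) against zeitgeber time in hours, with iKO on the left and flox on the right; points are libraries, lines join the means of 3 and open points are the 11 libraries with high cell cycle genes. The iKO means stay between 262 and 473 CPM, while the flox means lie between 103 CPM at ZT18 and 897 CPM at ZT6.

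A cosine of 24 h was fitted to each genotype on the log2 scale, in which the amplitude is the distance from the mean to the peak. The amplitude of Upp2 in liver was 0.38 in iKO (SE 0.19) with a peak at 3.85 h, and 1.42 in flox (SE 0.20) with a peak at 5.32 h. In terms of peak over trough, these are 1.69-fold in iKO and 7.13-fold in flox. Leaving out 1 library at a time gave amplitudes of 0.21 to 0.49 in iKO and of at least 1.34 in flox. Without the 11 numbers the amplitudes were 0.77 in iKO and 1.54 in flox, with peaks at 6.05 and 5.61 h, on 9 iKO and 16 flox libraries and with no iKO library at ZT22. Both amplitudes were larger without the 11 numbers, and no SE was computed for them there. The fits therefore do not show whether the flattening differs outside the 11. The part that the 11 libraries play in it was not tested.

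The average over the day comes from the same livers, but the choice of the gene did not rest on it. Upp2 averaged 384 ± 184 CPM in iKO livers and 464 ± 306 CPM in flox livers (SD, n = 18 each), and the 6 differences of iKO minus flox had a log2 mean of 0.02 (SE 0.19, adjusted p = 0.966 by edgeR's quasi-likelihood test with Benjamini-Hochberg adjustment over 16582 genes). A gene is said to be called below at an adjusted p under 0.05.

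Genes whose liver course was most like that of Upp2 were ranked by Pearson correlation of log2 CPM among 10651 genes, as a description, since all libraries share the tissue and the sampling times. Over the 18 flox libraries the first was Nr1d2, the clock repressor REV-ERB beta, at 0.93. It was followed by Hmgn2, a nucleosome-binding protein, at 0.91 and by Fcf1, Gpcpd1 and Vps41 at 0.86 each. The most opposed were Pcbp1, an RNA-binding protein, and Ticam1, an adaptor of innate immune receptors, at -0.91 each, and Tubb2a, a tubulin, at -0.90. Over the 18 iKO libraries the ranking was led by Slc1a5, an amino acid transporter, at 0.80, with Thsd1 at 0.76, Chd1l at 0.71, Tmc7 at 0.68 and Csrnp1 at 0.67, and Fam168a at -0.79, Pgam5 at -0.78 and Cstf2t at -0.75 stood at the other end. Nr1d2 was at 0.29 there, against 0.93 in flox, and Arntl itself at -0.46 in iKO, against -0.82 in flox. Over all 36 libraries Rbm18 at 0.74, Resf1 at 0.71, Ccdc82 at 0.70, Accs at 0.69 and Hddc2 at 0.67 led, with Tubb2a at -0.77, Rad23b at -0.75 and Zfp385a at -0.73 at the other end. Among the other members over all 36 libraries, the values ran from -0.34 for Cda to 0.14 for Upp1, so none was close to Upp2 in the pooled genotypes. In flox livers alone, Dpyd and Dpys had their highest mean at ZT18, where Upp2 and Upp1 had their lowest. Upb1 was highest there at ZT10 and Cda at ZT22. The pooled values therefore do not describe the flox courses.

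Upp2 in kidney was far lower than in liver and had its highest flox mean at the same time. At ZT6 it had 114, 45.0 and 33.2 CPM in iKO kidneys, against 107, 72.2 and 72.0 CPM in flox kidneys. At ZT18 it had 25.1, 156 and 36.7 CPM in iKO kidneys, against 14.8, 18.5 and 20.2 CPM in flox kidneys. All 3 iKO kidneys were the higher ones at ZT18, with 1 library, iKO ZT18 2, far above the others. The difference at ZT18 was 2.03 on the log2 scale (SE 0.75, adjusted p = 0.261) and was not called by edgeR. It was 1.02 without the 11 numbers, which leaves 1 iKO kidney at this time. The flox amplitude was 0.63 (SE 0.32) with a peak at 5.25 h, and the iKO amplitude was 0.12 (SE 0.36). Neither rhythm was called, with adjusted p = 0.965 in iKO and 0.401 in flox.

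Upp2 in WAT ran from 2.06 to 27.5 CPM in iKO, with a median of 5.25 CPM, against 1.73 to 14.7 CPM in flox, with a median of 3.46 CPM. The highest library was iKO ZT18 2. All values above 5.85 CPM came from libraries with lower epididymis genes, since the 13 libraries with high epididymis genes ran from 2.22 to 5.85 CPM and the other 23 from 1.73 to 27.5 CPM. Its average difference over the day was 0.33 on the log2 scale (iKO minus flox, SE 0.30, adjusted p = 1 by edgeR).

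Upp1, the widely expressed uridine phosphorylase, was low in most livers and high in some of the 11 libraries. It ran from 0.466 to 46.8 CPM in iKO livers, with a median of 3.04 CPM, against 1.21 to 15.6 CPM in flox livers, with a median of 2.21 CPM. At ZT18 it had 21.9, 14.4 and 1.18 CPM in iKO livers, against 1.66, 1.21 and 2.74 CPM in flox livers. The 2 high iKO libraries are among the 11, and iKO ZT18 3 lay below all flox libraries. The difference at ZT18 was 2.74 on the log2 scale (SE 1.04, adjusted p = 0.143) and was not called by edgeR. DESeq2 called it at 2.83 (adjusted p = 0.0372), as did edgeR without iKO ZT18 3 at 3.28 (adjusted p = 0.0419). Without the 11 numbers, which leaves iKO ZT18 3 as the only iKO liver at this time, the difference was -0.68. In the 11 libraries Upp1 had a median of 13.3 CPM and a range of 0.466 to 46.8 CPM, against a median of 2.23 CPM and a range of 1.05 to 6.30 CPM in the other 25. Both flox libraries of the 11, at 15.6 and 14.6 CPM, were above every other flox liver. Averaged over the day, the difference was 0.73 (SE 0.40, adjusted p = 0.257), and without the 11 numbers 0.05.

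The kidneys of the same 11 numbers also had more Upp1, within a narrower range. They had a median of 13.8 CPM and a range of 10.2 to 16.8 CPM, against a median of 8.82 CPM and a range of 5.90 to 14.5 CPM in the other 25. Interferon-stimulated genes averaged 4.90 to 7.43 log2 CPM in these 11 kidneys and 2.09 to 4.87 in the other 25, and their part in the Upp1 values was not tested. Over all kidneys Upp1 averaged 11.2 ± 3.53 CPM in iKO and 10.3 ± 2.49 CPM in flox (SD, n = 18 each), a difference of 0.11 on the log2 scale (SE 0.12, adjusted p = 0.857 by edgeR). In WAT Upp1 was lower where epididymis genes were high, with a median of 0.747 CPM and a range of 0.0452 to 2.14 CPM in those 13 libraries, against a median of 2.56 CPM and a range of 0.767 to 12.0 CPM in the other 23.

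Cda, which feeds cytidine into the pathway as uridine, was the member closest to a call in the average over the day in liver. It ran from 13.1 to 42.2 CPM in iKO livers, with a median of 18 CPM, against 3.27 to 35.4 CPM in flox livers, with a median of 13.1 CPM. At ZT2 it had 18.3, 14 and 13.5 CPM in iKO livers, against 11.2, 8.46 and 7.03 CPM in flox livers. At ZT10 it had 15.2, 18.6 and 22.2 CPM in iKO livers, against 15, 12.8 and 14.5 CPM in flox livers, and at ZT18 28.6, 42.2 and 29.5 CPM in iKO livers, against 13.3, 21.6 and 12.1 CPM in flox livers. The groups did not overlap at these 3 times. They overlapped at ZT14, with 17.2, 17 and 17.4 CPM in iKO livers, against 5.32, 16.4 and 23.6 CPM in flox livers, and at ZT22, with 17.6, 29.2 and 21.1 CPM in iKO livers, against 35.4, 17.7 and 10.5 CPM in flox livers. At ZT6 the iKO livers had 21.0, 16.3 and 13.1 CPM, against 18.5, 3.27 and 5.23 CPM in flox livers, and the highest flox library there is 1 of the 11. The share of all genes without overlap at a given time was not counted.

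Averaged over the 6 times, Cda was higher in iKO livers by a log2 difference of 0.57 (SE 0.19, adjusted p = 0.0881), which edgeR did not call. Unlike those of Upp1, Dpyd, Dpys and Upb1, its difference was larger without the 11 numbers, at 0.77 (SE 0.20, adjusted p = 0.0228), which was called among 9 iKO and 16 flox libraries. That average has no ZT22, where no iKO library is left and where the difference over all libraries was only 0.09. The averages with and without the 11 numbers thus cover unlike times. The difference over the 6 times was also called by DESeq2 at 0.59 (adjusted p = 0.0456), without flox ZT6 1 at 0.76 (adjusted p = 0.00481), without flox ZT22 1 at 0.67 (adjusted p = 0.0225) and without iKO ZT6 3 at 0.60 (adjusted p = 0.0490). Both of these flox libraries belong to the 11 and hold the highest and the fourth highest Cda of the flox livers. The cosine amplitudes in liver were 0.42 in iKO (SE 0.19) with a peak at 18.2 h and 0.50 in flox (SE 0.21) with a peak at 17.8 h, with adjusted p = 0.515 in iKO and 0.370 in flox, so neither rhythm was called.

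Dpyd, the first and limiting step of uracil breakdown, was lower in iKO livers on average, short of a call. It ran from 96.4 to 555 CPM in iKO livers, with a median of 238 CPM, against 115 to 611 CPM in flox livers, with a median of 366 CPM. The mean of the 6 differences was -0.58 on the log2 scale (SE 0.21, adjusted p = 0.106), which edgeR did not call. DESeq2 called it at -0.56 (adjusted p = 0.0478), and edgeR called it without iKO ZT18 3 at -0.75 (adjusted p = 0.0157), without flox ZT6 1 at -0.64 (adjusted p = 0.0250) and without flox ZT22 1 at -0.64 (adjusted p = 0.0346). Without the 11 numbers the difference was -0.24 (adjusted p = 0.326). The 11 libraries ran from 96.4 to 255 CPM, against 152 to 611 CPM in the other 25.

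Dpys and Upb1, the steps after Dpyd, differed more between the 11 libraries and the rest than between the genotypes. Dpys had a median of 11.2 CPM in the 11 libraries and ran from 2.62 to 113 CPM, against a median of 111 CPM and a range of 48.2 to 223 CPM in the other 25. Its lowest livers were flox ZT22 1 at 2.62 CPM, iKO ZT18 2 at 3.33 CPM and flox ZT6 1 at 3.52 CPM, so both genotypes held such values. Upb1 had a median of 71.8 CPM in the 11 and ran from 27.9 to 171 CPM, against a median of 313 CPM and a range of 221 to 456 CPM in the other 25, without overlap. The share of all genes without overlap between the 11 and the other 25 was not counted. Gucd1, which shares the span of Upb1 on the other strand, ran from 40.7 to 131 CPM in the 11 and from 90.9 to 198 CPM in the other 25. Hepatocyte genes averaged 10.73 to 12.66 log2 CPM in the 11 and 12.20 to 12.96 in the other 25, and the part of hepatocyte, macrophage or dividing cell content in these values was not tested. In bulk tissue, fewer cells of a type and less RNA per cell cannot be told apart.

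By genotype, Dpys averaged 84.6 ± 66.1 CPM in iKO livers and 105 ± 66.5 CPM in flox livers, and Upb1 averaged 223 ± 138 CPM in iKO livers and 267 ± 96.2 CPM in flox livers (SD, n = 18 each). The differences over the day were -0.39 for Dpys (SE 0.48, adjusted p = 0.631) and -0.36 for Upb1 (SE 0.32, adjusted p = 0.495) on the log2 scale, neither called by edgeR. Without the 11 numbers both had the other sign, at 0.23 for Dpys (adjusted p = 0.592) and 0.19 for Upb1 (adjusted p = 0.359). At ZT18 Dpys had 10.4, 3.33 and 164 CPM in iKO livers, against 203, 211 and 156 CPM in flox livers. Upb1 had 88.0, 36.3 and 356 CPM there in iKO livers, against 307, 283 and 291 CPM in flox livers. For both genes iKO ZT18 3, the one outside the 11, lay with or above the flox libraries, and without it edgeR called Dpys at ZT18 at -4.79 (adjusted p = 0.0384) and Dpyd at -1.91 (adjusted p = 0.0298).

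**Figure D2:**
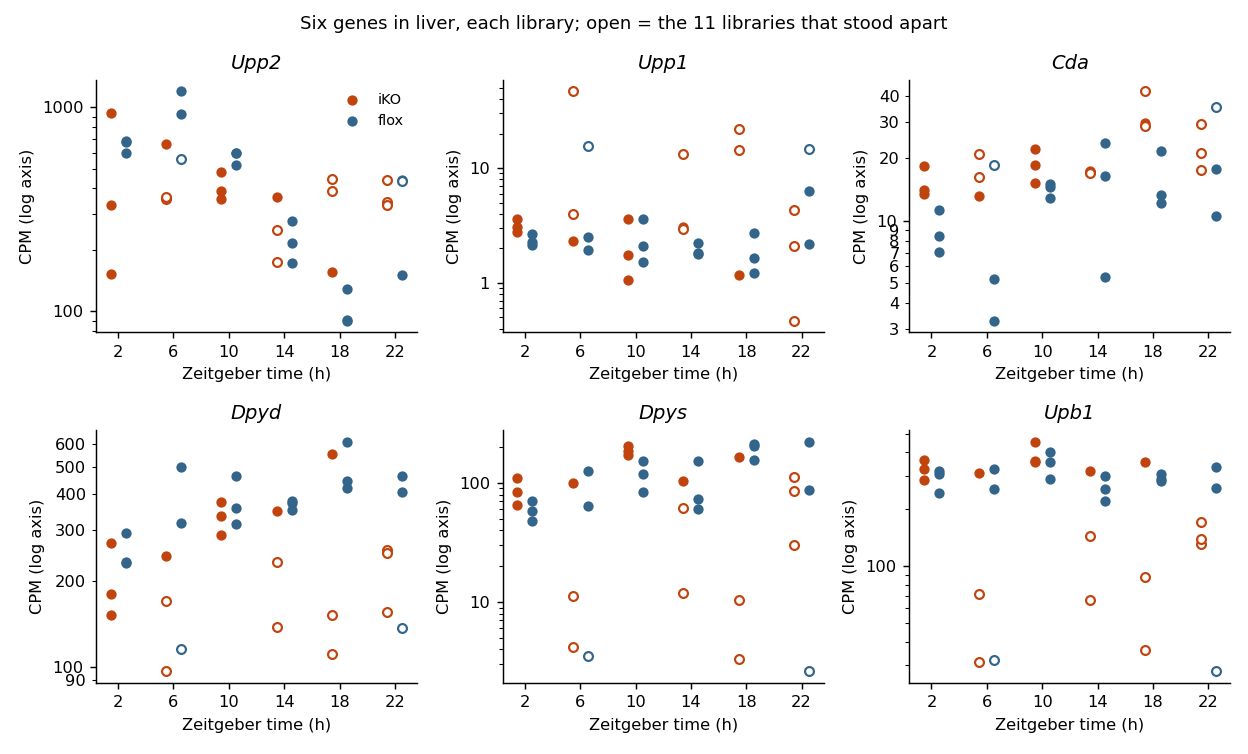
The 6 genes in liver in CPM (log axis) against zeitgeber time in hours, with each iKO library drawn left of the flox libraries of its time; open points are the 11 libraries with high cell cycle genes. Open points of both genotypes lie below the filled ones for Upb1, at 171 CPM or less against 221 CPM or more. Cda is higher in iKO without overlap at ZT2, ZT10 and ZT18. The share of all genes without overlap was counted for neither comparison.

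In kidney Dpys, Dpyd and Upb1 again had lower medians in the libraries of the 11 numbers. Dpys had a median of 8.52 CPM there and ran from 4.04 to 23.1 CPM, against a median of 31.6 CPM and a range of 7.60 to 51.2 CPM in the other 25. Dpyd had medians of 42.0 CPM in the 11 and 89.1 CPM in the other 25, and Upb1 of 126 CPM in the 11 and 180 CPM in the other 25. Cda, which was higher in the 11 livers, was lower in the 11 kidneys, with a median of 139 CPM and a range of 111 to 212 CPM, against a median of 260 CPM and a range of 131 to 410 CPM in the other 25. Kidney tubule genes were lower in the 11 as well, with a median of 9.14 log2 CPM and a range of 8.99 to 10.14, against a median of 10.36 and a range of 9.09 to 10.54 in the other 25, and their part in these values was not tested. The numbers come from liver values and the labels do not say that libraries with 1 number share an animal. In WAT, interferon-stimulated genes had medians of 5.72 log2 CPM in the 11 and 3.17 in the other 25.

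**Figure D3:**
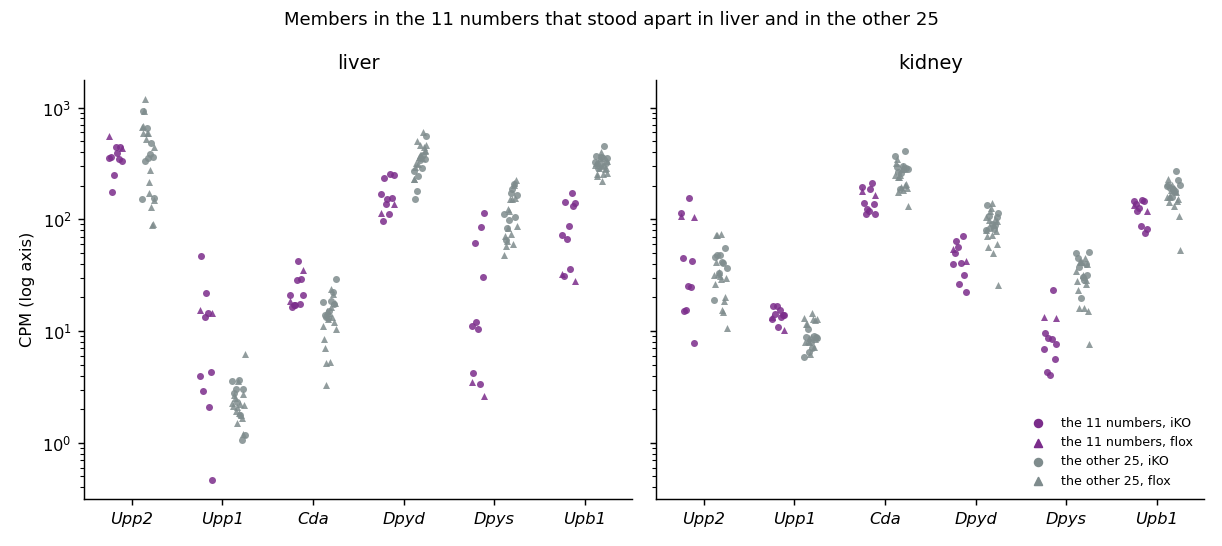
CPM (log axis) of the 6 genes in liver (left) and kidney (right), for the 11 numbers (purple) and the other 25 (grey), with circles for iKO and triangles for flox libraries. In both tissues Dpys, Dpyd and Upb1 have lower medians in the 11, with 11.2 against 111 CPM for Dpys in liver and 8.52 against 31.6 CPM in kidney.

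Across the 6 genes, edgeR called none for the average genotype effect in liver, where it called 2.64% of all genes tested, 1.09% as higher and 1.56% as lower in iKO. Unadjusted p was under 0.05 for 2 of them, Cda and Dpyd, and for 4079 of the 16582 genes tested. DESeq2 called the same 2, among 9.71% of all genes. In kidney edgeR called none of the 6, against 0.164% of all genes (0.0737% higher and 0.0908% lower), and in WAT none, against 0% of all genes. In both tissues no member had an unadjusted p under 0.05 for the average, and DESeq2 called none. The kidney differences ran from -0.38 for Dpys (SE 0.28) to 0.14 for Upp2 (SE 0.29). The WAT differences ran from -0.64 for Upb1 (SE 0.42) to 0.45 for Upp1 (SE 0.43), all with wide errors.

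At single times, edgeR called none of the other 5 genes in liver, against 0.0362% of all genes at ZT18 (0.0121% higher and 0.0241% lower) and 0% at each other time. Upp1 and Cda had an unadjusted p under 0.05 at ZT18, as did 3284 of the 16582 genes tested. DESeq2 called Upp1 there, among 8.38% of all genes. Cda at ZT18 had a log2 difference of 1.09 (SE 0.48, adjusted p = 0.199 by edgeR). In kidney none of the 6 was called at any time by edgeR or DESeq2. Over all genes edgeR called at most 0.0113%, at ZT22 (0.00567% higher and 0.00567% lower). Only Upp2 at ZT18 had an unadjusted p under 0.05, as did 2495 of 17630 genes. In WAT none was called at any time by either tool, against 0% of all genes by edgeR. Only Upb1 at ZT10 had an unadjusted p under 0.05, as did 1241 of 21402 genes. The joint test of genotype by time, leaving out Upp2 in liver, called none of these genes in any tissue with either tool, against 0% of all genes by edgeR. None had an unadjusted p under 0.05 by edgeR, while by DESeq2 Upp1 in liver had an unadjusted p of 0.0192 (adjusted p = 0.314).

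For daily rhythm, edgeR called none of the 5 genes other than Upp2 in liver, in iKO or flox, against 0.0844% of all genes in iKO and 0.772% in flox. None of the 5 had an unadjusted p under 0.05, and DESeq2 called none. In kidney none of the 6 was called by either tool or had an unadjusted p under 0.05, against 4.22% of all genes in iKO and 5.07% in flox by edgeR. With 6 levels of time in place of a cosine, edgeR called 2 of the 6 in iKO kidneys, Cda (adjusted p = 0.0179) and Upb1 (adjusted p = 0.0442), but it then called 40.0% of all genes there. In iKO kidneys Cda was at 367, 295 and 263 CPM at ZT2 and at 212, 138 and 111 CPM at ZT22, a time at which all 3 libraries belong to the 11 numbers. In WAT none of the 6 was called in iKO or flox by either tool, against 0% of all genes by edgeR. Only Upb1 in flox had an unadjusted p under 0.05, as did 2074 of 21402 genes. The change of rhythm between genotypes, again leaving out Upp2 in liver, was called for none of these genes in any tissue by either tool. Over all genes edgeR called 0%. Only Upb1 in WAT had an unadjusted p under 0.05, as did 674 of 21402 genes there.

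The 1 rhythm near a call outside liver, Upb1 in flox WAT, rested on 1 library. At ZT10 Upb1 had 2.03, 0.806 and 1.67 CPM in iKO WAT, against 48.4, 0.650 and 1.19 CPM in flox WAT. In the flox library ZT10 1 the gene had 480 counts, against 15 and 25 in the other 2, while Gucd1 on the other strand had 650 counts there, against 966 and 864, and the liver gene Alb, which encodes albumin, had 2, against 40 and 5. The fitted amplitude of 2.04 in flox (SE 0.41, adjusted p = 0.107) was not called by edgeR, which called 0% of all genes in this comparison, and Upb1 was called when flox ZT10 3 was left out (adjusted p = 0.0430). Outside flox ZT10 1, Upb1 was at 4.22 CPM or less in every WAT library, and without it the flox amplitude was 0.53.

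The clearest contrasts of the members were between tissues. Values per kilobase use the gene length of the deposited table, such as 7.76 kb for Upp2 and 1.03 kb for Cda. The expressed transcripts may be of other lengths, and the order of genes within a tissue rests on these lengths. With the libraries of all tissues scaled together, Upp2 led in liver at 75.2 ± 34.9 CPM per kb in iKO and 90.4 ± 59.5 in flox (SD, n = 18 each). Next came Dpyd at 40.7 ± 18.7 in iKO and 60.5 ± 21.2 in flox, Upb1 at 49.2 ± 29.7 in iKO and 59.1 ± 21.2 in flox, and Dpys at 33.8 ± 26.3 in iKO and 42.5 ± 27.3 in flox. Cda followed at 30.6 ± 11.6 CPM per kb in iKO and 20.6 ± 12.0 in flox, and Upp1 came last at 5.86 ± 9.20 in iKO and 3.02 ± 3.51 in flox. In iKO the order of Dpyd and Upb1 was the other way round. Neighbours in either order differed by less than the larger of their SDs, except that Cda stood above Upp1.

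In kidney Cda led by far, at 192 ± 78.8 CPM per kb in iKO and 198 ± 49.5 in flox. Upb1 came second at 21.1 ± 6.84 in iKO and 20.6 ± 5.15 in flox, and Dpyd, Dpys, Upp2 and Upp1 followed at 5.12 to 7.22 in iKO and at 4.68 to 8.19 in flox, within 1 SD of their neighbours. In WAT all 6 were low, with Dpyd at 3.33 ± 2.44 CPM per kb in iKO and 2.77 ± 1.49 in flox, Cda at 3.18 ± 3.44 in iKO and 3.27 ± 3.47 in flox, and the other 4 at 1 or less in both genotypes. Liver thus held the most RNA of the phosphorylase Upp2 and of the 3 enzymes of uracil breakdown, and kidney the most of the deaminase Cda. The mean of Upp1 was higher in kidney than in liver in flox but not in iKO. Its median was higher in kidney in both, at 4.84 against 2.31 CPM per kb in iKO and 4.35 against 1.71 in flox. Liver values of iKO ran up to 38 CPM per kb.

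**Figure D4:**
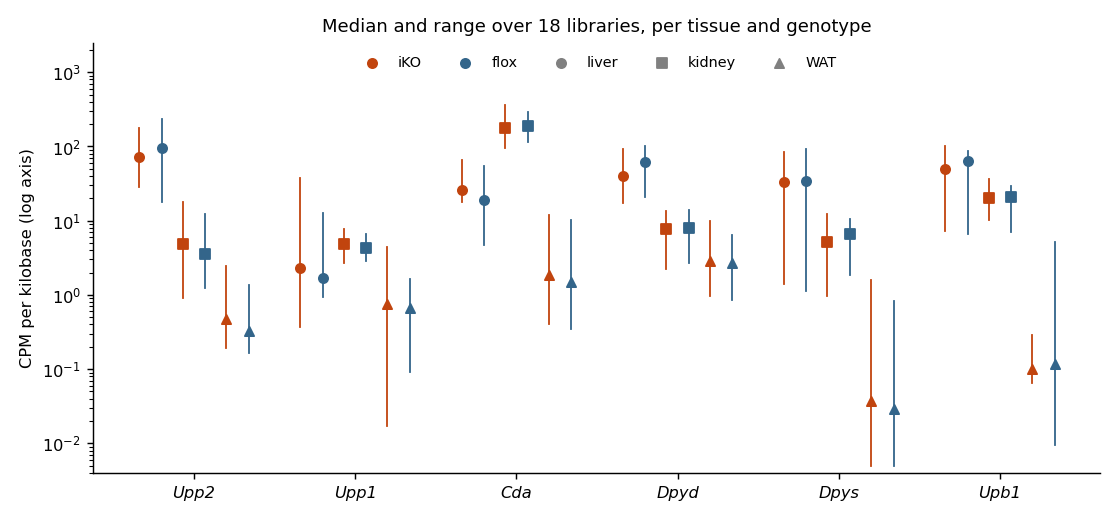
CPM per kilobase (log axis) of the 6 genes; symbols are medians and lines the range over 18 libraries, with circles for liver, squares for kidney and triangles for WAT, and iKO left of flox. Values of 0 are drawn at the foot of the line. Cda is highest in kidney, at a median of 177 in iKO and 191 in flox, and Upp2 in liver, at a median of 71.3 in iKO and 94.1 in flox.

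These tissue differences were tested in flox as the mean over the 6 times. All 6 genes were called between liver and kidney, against 62.5% of all genes tested. Upp2 was higher in liver by a log2 difference of 4.04 (SE 0.30, adjusted p = 2.308e-20 by edgeR), Dpyd by 2.93 (SE 0.24), Dpys by 2.65 (SE 0.53) and Upb1 by 1.54 (SE 0.31). Cda was lower in liver than in kidney, at -3.30 (SE 0.34, adjusted p = 5.613e-14), and so was Upp1 at -0.90 (SE 0.35, adjusted p = 0.0205). The difference of Upp1 was not called without the libraries numbered 2, at -0.72 (adjusted p = 0.17 by edgeR), and was larger without the 11 numbers, at -1.30.

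All 6 were also called between liver and WAT, against 74.2% of all genes, and between kidney and WAT, against 63.5%, each time lower in WAT. Liver minus WAT ran from 1.91 for Upp1 (SE 0.36) to 8.23 for Upb1 (SE 0.41), with 7.35 for Upp2 (SE 0.35) and 8.12 for Dpys (SE 0.69). Kidney minus WAT ran from 1.53 for Dpyd (SE 0.23) to 6.70 for Upb1 (SE 0.39), with 6.02 for Cda (SE 0.39). The genotype effect itself differed between tissues for none of the 6 by edgeR or DESeq2, against 0.395% of all genes for liver minus kidney, 0.592% for liver minus WAT and 0.0132% for kidney minus WAT. For liver minus WAT the effect on Dpyd differed by -0.74 (SE 0.32, adjusted p = 0.269 by edgeR). This was the only unadjusted p under 0.05, which 3096 of 22789 genes had in this comparison. The difference was called without the libraries numbered 3, at -1.01 (adjusted p = 0.0412 by edgeR).

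In WAT, Dpys was detected mainly, and Cda was at its highest, where epididymis genes were high. Dpys ran from 0.348 to 8.04 CPM in the 13 libraries with high epididymis genes and from 0 to 0.428 CPM in the other 23, of which 12 had no count at all. Cda ran from 2.51 to 16.5 CPM in the 13 and from 0.480 to 4.57 CPM in the other 23. Dpyd had the other order, with a median of 17.7 CPM in the 13 and 37.2 CPM in the other 23. Adipocyte genes averaged 3.88 to 9.37 log2 CPM in the 13 and 6.25 to 11.63 in the other 23. Skeletal muscle genes averaged -1.08 to 5.11 in the 13 and -1.47 to 12.4 in the other 23, so some of the 23 had high muscle genes. The part of epididymal or muscle tissue in the values of the members was not tested.

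Both genotypes were present in each set. In the 13, Dpys ran from 0.348 to 8.04 CPM in 7 iKO libraries and up to 4.21 CPM in 6 flox libraries. Without the 13 libraries, the difference of liver minus WAT in flox was 11.42 for Dpys and 4.2 for Cda, against 8.12 and 2.71 with them, and that of kidney minus WAT was 8.78 for Dpys and 7.50 for Cda, against 5.48 and 6.02. All 6 genes remained called in both comparisons without them, against 54.5% of all genes for liver minus WAT and 45.6% for kidney minus WAT. No member was called for the genotype effect in WAT without them by edgeR, against 0% of all genes.

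**Figure D5:**
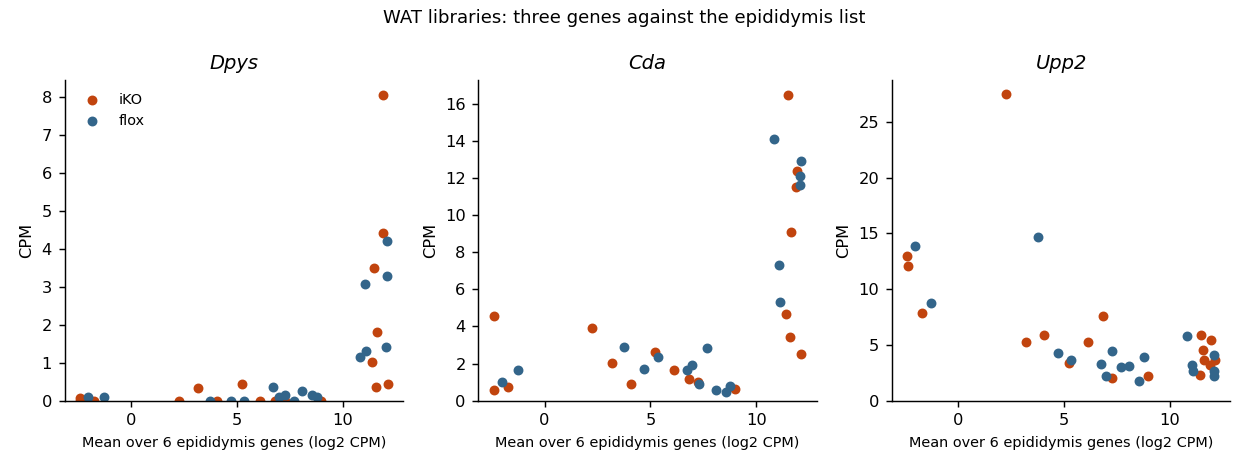
CPM of Dpys, Cda and Upp2 in the 36 WAT libraries (vertical axes, from 0) against the mean log2 CPM of 6 epididymis genes, with iKO in orange and flox in blue. Every Dpys value above 0.428 CPM lies above an epididymis mean of 10, and the Upp2 values above 5.85 CPM lie below it.

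Other genes of nucleotide metabolism were read from lists. Of 10 further genes of pyrimidine breakdown tested in liver, 1 rose in the average over the day, Nt5c3, a 5'-nucleotidase of pyrimidine nucleotides, by a log2 difference of 0.35 in iKO (SE 0.08, adjusted p = 0.0256 by edgeR). It was not called without the 11 numbers (0.35, adjusted p = 0.0523), without the 2 numbers (0.34, adjusted p = 0.0632) or with no filter (0.36, adjusted p = 0.0807), and neither without flox ZT22 2 nor without iKO ZT10 2 (adjusted p = 0.0590 and 0.0521). The list had a median difference of -0.14, and all genes one of 0.00. By edgeR, unadjusted p was under 0.05 for 2 of the 10, and DESeq2 called 1 of 11 genes, against 2.64% of all genes called by edgeR and 9.71% by DESeq2. Of 11 genes of pyrimidine salvage, 1 rose, the uridine and cytidine kinase Uck1, by 0.44 in iKO (SE 0.09, adjusted p = 0.00739), with a list median of 0.07, and without the 11 numbers its difference was 0.24 (adjusted p = 0.182). In this list 2 genes had an unadjusted p under 0.05 by edgeR, and DESeq2 called 1. Of 3 genes of pyrimidine synthesis, 8 of CTP, dUTP and dTTP synthesis and 4 nucleoside transporters tested in liver, edgeR called none, with list medians of -0.19, 0.22 and -0.01. Unadjusted p was under 0.05 for 0, 3 and 2 of them, and DESeq2 called 0, 1 and 0.

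Of 8 genes of purine breakdown in liver, 1 was called, Uox, the urate oxidase, which fell by 1.26 on the log2 scale in iKO (SE 0.30, adjusted p = 0.0231 by edgeR), with a list median of 0.02. Without the 2 numbers it was not called, at -1.21 (adjusted p = 0.0571). By edgeR, unadjusted p was under 0.05 for 6 of these 8 genes, and DESeq2 called 4 of them. Of 19 clock genes, 1 was called, Bhlhe40, a clock repressor, which fell by 0.75 in iKO (SE 0.20, adjusted p = 0.0418), with a list median of -0.21. The call of Bhlhe40 was lost on leaving out 29 of the 36 libraries singly, with adjusted p of 0.00707 to 0.0810 over all 36, and with no filter (adjusted p = 0.0662). By edgeR, unadjusted p was under 0.05 for 7 of the 19 clock genes, and DESeq2 called 4. Over all 16582 genes tested in liver, 4079 had an unadjusted p under 0.05 for this average by edgeR. Called were 2.64% of all genes by edgeR and 9.71% by DESeq2.

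In kidney the average effect was called for 1 of 19 clock genes, Npas2, a partner of Bmal1, which rose by 1.49 in iKO (SE 0.28, adjusted p = 0.0251 by edgeR). It was not called without flox ZT18 1, flox ZT6 3 or iKO ZT2 1 (adjusted p = 0.0515, 0.0596 and 0.0510), or without the 2 numbers (adjusted p = 0.0580). By edgeR, unadjusted p was under 0.05 for 6 of the 19 clock genes, and DESeq2 called 2. Over all 17630 genes tested in kidney, 1662 had an unadjusted p under 0.05 by edgeR. Called were 0.164% of all genes by edgeR and 1.15% by DESeq2. Of 51 genes of the 7 metabolic lists tested in kidney, edgeR called none, 8 had an unadjusted p under 0.05 and DESeq2 called 1. In WAT edgeR and DESeq2 called none of 53 such genes and none of 19 clock genes. By edgeR 5 and 4 of them had an unadjusted p under 0.05, as did 805 of all 21402 genes.

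The rhythms of the clock genes give the setting for that of Upp2. In liver, edgeR called 4 of 19 clock genes as rhythmic in iKO and 8 of 19 in flox, against 0.0844% of all genes in iKO and 0.772% in flox, among them Nr1d2 (adjusted p = 0.0117 in iKO and 0.00258 in flox), Arntl in flox (adjusted p = 0.000815), Cry1 in flox (adjusted p = 0.00234) and Per3 in flox (adjusted p = 0.00456). Without the 11 numbers, on 9 iKO livers with none at ZT22 and 16 flox livers, the counts were 2 in iKO and 16 in flox, among 147 genes in iKO and 1406 in flox. In kidney it called 11 of 19 in iKO and 14 of 19 in flox, with Per3 first in both (adjusted p = 1.1e-05 in iKO and 4.16e-05 in flox), and without the 11 numbers 4 in iKO, among 31 genes. In WAT edgeR called none of the 19 in iKO or flox, and DESeq2 called 0 in iKO and 3 in flox. Unadjusted p by edgeR was under 0.05 for 5 in iKO and 8 in flox. Over all 21402 genes it was so for 809 in iKO and 2074 in flox. Among the metabolic lists, Nt5c3 was called in flox liver (adjusted p = 0.0397), and Ctps, a CTP synthase (adjusted p = 0.00642), and Ugdh, the UDP-glucose dehydrogenase (adjusted p = 0.0346), in iKO kidney. In single leave-outs, 17 of 36 ended the call of Nt5c3 and 10 of 36 that of Ugdh, with adjusted p of up to 0.0962 and 0.0885, and without the 11 numbers adjusted p was 0.309 for Ctps and 0.664 for Ugdh. A call in 1 genotype and not in the other does not show that the rhythms differ, and the test of that difference called none of these genes by edgeR or DESeq2.

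Between tissues in flox, the further genes of pyrimidine breakdown did not all follow the members. Between liver and kidney 9 of 11 were called, 3 higher and 6 lower in liver, between liver and WAT 8 of 11, 6 higher and 2 lower, and between kidney and WAT 8 of 11, 7 higher and 1 lower. Over all genes 62.5%, 74.2% and 63.5% were called in these comparisons, so such counts alone say nothing particular about the list. Tymp, the thymidine phosphorylase, was higher in liver than in kidney by a log2 difference of 4.37 (SE 0.35, adjusted p = 9.59e-19 by edgeR). Agxt2 and Abat, aminotransferases that act on beta-alanine, were higher in liver than in WAT by 9.52 (SE 0.47) and 4.05 (SE 0.27). Nt5e, the nucleotidase on the cell surface, was lower in liver than in kidney, at -3.29 (SE 0.32), and so was Nt5c2, a nucleotidase of the cytosol, at -1.21 (SE 0.10).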

How the data were processed

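Messenger RNA was sequenced from liver, kidney and WAT. The authors deposited 1 table of raw read counts per gene for 36 libraries of each tissue; every column of values was matched to a sample by its name, and 0 columns were left over. HISAT2 2.0.4, featureCounts 1.5.0-p3, DESeq2 1.16.1 and the builds GRCm38 and mm10 are named in the submitters' processing notes; the strand setting is not given in the sources used here. Start and end in the deposited table matched GENCODE M21 on GRCm38 for 2.80% of 52083 gene identifiers, so places were taken from GENCODE. Promoter windows came from RefSeq.

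Counts were fitted per tissue in R 4.3.3 with edgeR 4.0.16 (filterByExpr over 12 groups, TMM, glmQLFit with robust set, glmQLFTest), with 1 mean per genotype and time, or a mean, cosine and sine of 24 h per genotype. For contrasts of tissues, the libraries of all tissues entered 1 common fit. P-values were adjusted by Benjamini-Hochberg over all genes tested, 16582 in liver, 17630 in kidney, 21402 in WAT and 22789 in all, and called under 0.05. Correlations used log2 CPM with a prior count of 2. The scripts were tested on simulated data. Alternatives were DESeq2 1.42.0, its size factors, no filter, a replicate block, time as 6 levels, leaving out each library, the 11 or the 2 numbers that stood apart and, chosen after seeing the data, the 13 WAT libraries.

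The 6 members and the gene lists were chosen with earlier results of these data known. Named were the members, up to 4 called genes per list with the smallest adjusted p, and the 5 genes most and 3 least like Upp2; 1 gene of these lists is not reported here. Total counts of 13876000 to 24415000 per library limit the precision of low genes such as Dpys in WAT. No pair of libraries of 1 group agreed within sampling noise.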

Additional observations from a re-analysis of the deposited data

How the results depend on the processing

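Without the 11 numbers that stood apart, which leaves no iKO library at ZT22, many small differences had the other sign. Averages over the day (iKO minus flox, log2) were then 0.17 for Cda, 0.16 for Dpyd, 0.10 for Dpys and -0.29 for Upp1 in kidney, 0.23 for Dpys, 0.19 for Upb1 and -0.07 for Upp2 in liver, and -0.34 for Dpyd, -0.97 for Upp1 and -0.06 for Upp2 in WAT. At ZT18, iKO ZT18 3 is then the only iKO library left in each tissue. The differences there were 0.26 for Cda, 0.30 for Dpyd, 0.68 for Dpys, 0.34 for Upb1 and -0.13 for Upp1 in kidney. In liver they were 0.15 for Dpyd, 0.26 for Upb1 and -0.68 for Upp1. Without the 2 numbers whose livers had sex-linked genes against their label, the average of Upp2 in liver was -0.01. At ZT18 in kidney Cda was then 0.02 and Upb1 0.16. The cause was not tested. Leaving out 1 library at a time turned the sign of averages that ran from -0.52 to 0.22 for Cda, -0.02 to 0.30 for Dpyd, -1.18 to 0.40 for Dpys and -0.77 to 0.06 for Upb1 in WAT, from -0.03 to 0.08 for Upb1 and -0.06 to 0.35 for Upp2 in kidney, and from -0.14 to 0.09 for Upp2 in liver. At ZT18 in kidney it gave -0.58 to 0.02 for Cda and -0.40 to 0.16 for Upb1.

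Leaving out Upp2 over time in liver, the number of members called was 0 in each genotype and rhythm comparison. For the average in liver it was 2 with DESeq2 and 1 without the 11 numbers, and 0 to 2 leaving out 1 library. For single times in liver it was 1 with DESeq2 and 0 to 3 leaving out 1 library. For rhythm in iKO kidney it was 2 with time as a factor, for rhythm in flox WAT 0 to 1 leaving out 1 library, and for the effect of liver minus WAT 0 to 1 leaving out 1 replicate number.

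The labels give no pairing by number. Correlations of the deviations of same-numbered libraries had medians of 0.03 to 0.11, and in no kind of pair were all over 0.1. Between liver and kidney 17 of 36 were, and kidneys of the 11 numbers had more of the interferon-stimulated genes, so libraries of different tissues with 1 number may not be independent, which the tests between tissues take them to be. With a replicate block no member changed its call (in liver Dpyd was -0.62 with adjusted p = 0.0537 and Cda 0.59 with adjusted p = 0.0703), the call of rhythm in flox liver was lost for Nt5c3 (adjusted p = 0.0529), and 796 genes were called for the average in liver against 438.

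Over all genes, calls for the average in liver were 218 with no filter, 1199 without the 11 numbers, 159 without the 2 numbers and 1609 with DESeq2, against 438. For rhythm in iKO liver they were 147 without the 11 numbers, 2 without the 2 numbers, 213 with DESeq2 and 1916 with time as a factor, against 14, and in flox liver 77 with no filter, 1406 without the 11 numbers, 476 with DESeq2 and 682 with time as a factor, against 128. In kidney the average gave 77 without the 11 numbers, 17 without the 2 numbers and 203 with DESeq2, against 29, and rhythm in iKO 417 with no filter, 31 without the 11 numbers, 170 without the 2 numbers, 1579 with DESeq2 and 7058 with time as a factor, against 744. At ZT18 in liver they were 0 without the 2 numbers and 1389 with DESeq2, against 6. Clock genes called for rhythm in iKO liver were 8 with DESeq2, 10 with time as a factor, 2 with the block and 1 without the 2 numbers, against 4.

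For rhythm in flox kidney the calls were 473 with no filter, 1579 without the 11 numbers, 1722 with DESeq2 and 2185 with time as a factor, against 894. A difference of the genotype effect between liver and kidney was called for 40 genes with no filter, 15 without the 11 numbers, 34 without the 2 numbers and 429 with DESeq2, against 90. Between liver and WAT it was called for 33 with the block, 32 with no filter, 81 without the 11 numbers, 14 without the 2 numbers, 709 with DESeq2 and 491 without the 13 WAT libraries, against 135, and between kidney and WAT for 58 with DESeq2 and 159 without the 13 libraries, against 3. Where edgeR called 0 genes, DESeq2 called up to 512, in liver at ZT14.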
